A study of Oryza sativa Japonica Group with 8 samples.

Results

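UDP-dependent glycosyltransferases (UGTs) are the rice genes described here, taken as every gene whose deposited description names a UDP-glucuronosyl/UDP-glucosyltransferase, a UDP-glucosyltransferase or a UDP-glycosyltransferase. The rule used the descriptions only, not the measured levels, and found 130 of the 37869 genes in the gene table. The wording of 114 of them names the UDP-glucuronosyl/UDP-glucosyltransferase family or domain, and 12 are described as similar to a numbered UDP-glycosyltransferase such as UGT99C4 or UGT75E3.

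Plant UGTs move a sugar, most often glucose, from a UDP-sugar onto a small acceptor molecule. Acceptors include auxin, cytokinins, abscisic acid, salicylic acid, flavonoids, anthocyanidins and toxins from outside the plant, and the sugar makes the product more soluble and often inactive, so that it can be stored in the vacuole. The sugar donor is bound near the end of the protein by a short conserved box, while the more variable front part binds the acceptor, and the family has grown by local duplication, so that many copies lie beside each other. Beta-glucosidases remove the sugar again.

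Leaf RNA was sequenced from 4-week-old rice grown in soil with no treatment, in 4 groups of 2 libraries, described by the study as biological replicates. That age is from the labels and the methods, and a figure legend of the study gives a younger one. OsGRP3 is a glycine-rich RNA-binding protein. OsGRP3 OE plants (OX in the labels) are of cultivar Nakdong and carry the OsGRP3 coding sequence behind the constitutive OsCc1 promoter, and OsGRP3 KD plants are of cultivar Dongjin and carry an RNA interference cassette against the 3′ end of the OsGRP3 transcript behind the constitutive OsGOS2 promoter. Non-transgenic (NT) plants of the same cultivar, NT Nakdong and NT Dongjin, are the references, and the study asked which transcripts change when OsGRP3 is raised or lowered.

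The estimated counts of a library summed to between 25836946 and 38940899, and levels are given as CPM (counts scaled by library size), or as FPKM (reads scaled by transcript length and sequencing depth) where genes are compared with each other. OsGRP3 itself (Os03g0670700) stood at 1250 and 1170 CPM in NT Nakdong, 1530 and 1930 CPM in OsGRP3 OE, 400 and 403 CPM in NT Dongjin and 345 and 325 CPM in OsGRP3 KD. Its log2 fold changes of 0.51 in OE and -0.26 in KD had the direction of the labels but adjusted p-values of 0.0666 and 0.0761 in edgeR's quasi-likelihood test. The study's own table of its sequencing gives a larger rise in OE and a far larger fall in KD. NT Dongjin lay closer to KD than to NT Nakdong for this gene. The NT Dongjin libraries stood apart from the other 6. Over 6883 transcripts the coverage of the first exon relative to the last had a median log2 ratio between -2.92 and -2.53 in 6 libraries and of -0.87 and -0.80 in NT Dongjin, and over the 18 UGT transcripts in that comparison it was between -1.30 and -0.76 against -0.29 and -0.32. The 23 leaf genes checked (chlorophyll a/b binding proteins and the small subunit of Rubisco) had 4 or 5 at 0 counts in every library, and summed to 49400 and 49500 CPM in NT Dongjin and to 97200 CPM or more, up to 129000 CPM, in the others. In log2 CPM over the tested genes the KD libraries correlated at 0.919 to 0.936 with the Nakdong libraries and at 0.812 to 0.822 with NT Dongjin. The labels do not say why NT Dongjin differs. A difference in how those libraries were made, or in the plants they came from, and the effect of the KD transgene cannot be told apart. The NT Nakdong libraries are therefore set beside the KD results. In whole leaves, fewer cells of a type and less RNA per cell cannot be told apart either.

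The 130 UGT genes lie on 11 chromosomes, with 21 on chromosome 7, 20 on chromosome 1, 16 on chromosome 5 and 1 on chromosome 8. Most of them have no intron: 82 have 1 exon, 38 have 2 and 10 have more. With at most 2 other annotated genes allowed between them, 82 of the 130 fall into 29 groups of neighbours, the largest of 5, and 48 stand alone. Most UGT genes were weakly expressed in leaves. Over the 8 libraries 19 had a mean of at least 10 FPKM, 50 had between 1 and 10, and 61 were below 1, with a median of 1.34 FPKM. At 0 counts in all 8 libraries were 8 genes, and 100 of the 130 passed edgeR's filter on low counts and could be tested, 2 of them through the libraries of 1 group only. The 30 that did not pass never exceeded 23 counts in a library.

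The UGT gene with the highest level was Os07g0100300, described as similar to SQD2, which in Arabidopsis adds a sulfur-bearing sugar to make the sulfolipid of chloroplast membranes and is not one of the small-molecule UGTs. It stood at 135 and 127 FPKM in NT Nakdong, 118 and 122 in OsGRP3 OE, 160 and 165 in NT Dongjin and 99 and 112 in OsGRP3 KD. The KD libraries lay below all others and the NT Dongjin libraries above them. The log2 fold change in KD against NT Dongjin was -0.77 ± 0.10 (SE, edgeR, adjusted p = 0.000143), short of the 2-fold limit used here. Os04g0320700, with 1 transcript described as similar to a glucosyltransferase, came second, at 54.9 and 66.4 FPKM in NT Nakdong, 70.6 and 53.4 in OE, 219 and 243 in NT Dongjin and 75.3 and 70.3 in KD. The NT Dongjin libraries were higher than any other for this gene, and the other 6 overlapped. These 2 genes held 25.5% of the summed mean FPKM of all 130, and the 8 highest genes held 54.6%.

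Summed over all 130 genes, the UGT level was between 731 and 894 FPKM in NT Nakdong, OE and KD and 1163 and 1252 FPKM in NT Dongjin. Of the 8 highest genes, 4 were called lower in KD than in NT Dongjin (Os04g0320700, Os01g0179600, Os11g0599200 and Os02g0206700), and were thus picked for being high there. Together they stood at 508 and 567 FPKM in NT Dongjin and at 121 to 161 FPKM in the other libraries. The remaining 126 genes summed to 654 and 685 FPKM in NT Dongjin, inside the range of 610 to 741 FPKM of the other 6 libraries. That remainder held rises and falls side by side. Os02g0188000 stood at 58.6 and 64.5 FPKM in NT Dongjin against 8.7 to 14.3 FPKM elsewhere, and Os06g0289900 at 1.07 and 0.768 FPKM against 53.2 to 94.3 FPKM. A higher family total in NT Dongjin came with fewer detected genes: 62 and 63 UGT genes reached 1 FPKM there against 67 to 71 elsewhere, and 32 and 31 were at 0 counts against 18 to 26. Over the whole table, too, more genes were at 0 counts in NT Dongjin (13721 and 13166) than in the other libraries (11070 to 11903).

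**Figure D1:**
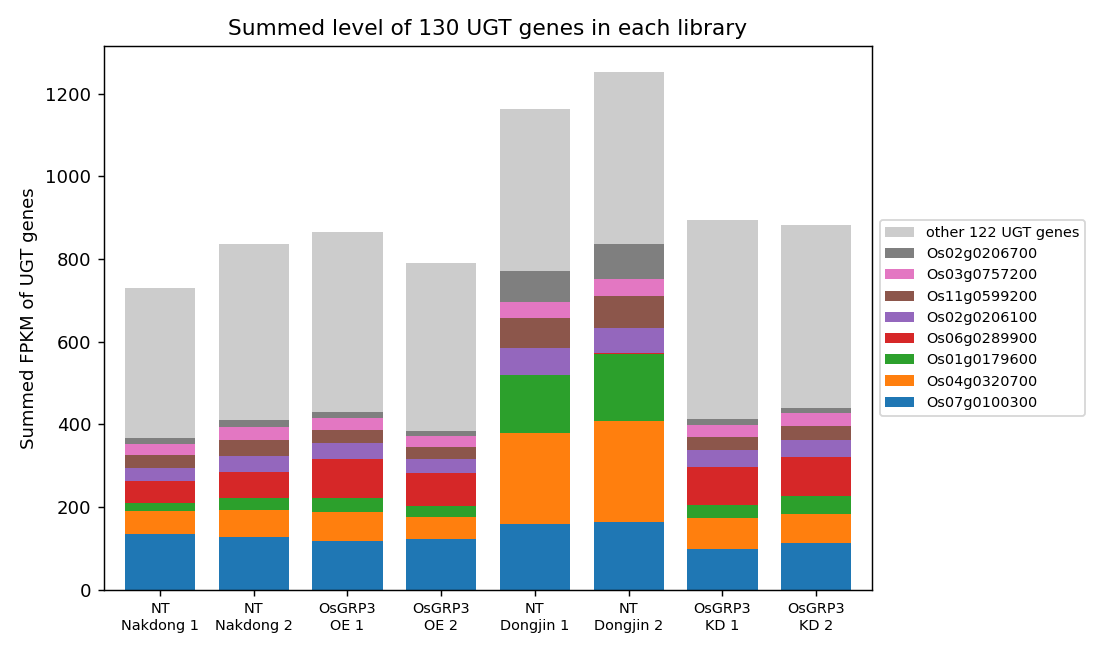
Summed FPKM of the 130 UGT genes in each of the 8 libraries, with the 8 genes of highest mean FPKM as coloured segments and the others in grey. The NT Dongjin bars reach 1163 and 1252 FPKM against 731 to 894 in the other libraries, with taller segments there for 7 of the 8 genes and a hardly visible one for Os06g0289900.

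In OsGRP3 OE compared with NT Nakdong, no UGT gene was called, where a call means a change of 2-fold or more whose p in edgeR's quasi-likelihood test, adjusted by Benjamini-Hochberg over the 24383 genes tested, is under 0.05. Over all genes 1.47% were called, 0.619% higher and 0.853% lower. The 100 tested UGT genes had 52 positive and 48 negative fold changes, with a median log2 fold change of 0.02 beside 0.00 for all genes. With no adjustment of p, 9 UGT genes passed 2-fold as higher and 0 as lower, beside 1.74% and 2.60% of all genes (4.34% in either direction). One of the 9, Os04g0197500, passed the filter on low counts through the OE libraries alone. Without regard to fold, 16 of the 100 had an unadjusted p under 0.05, beside 14.1% of all genes, and 3 an adjusted p under 0.05, beside 2.34%. DESeq2 called 3 UGT genes higher and 0 lower, beside 0.619% and 0.843% of all genes. Os04g0197500, with counts in the OE libraries alone, was among these 3 as well.

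The 3 UGT genes with an adjusted p under 0.05 in OE were all higher and short of 2-fold, and they are named because of that. Os07g0510500 stood at 15 and 16.7 CPM in NT Nakdong and 32.9 and 27.8 CPM in OE, a log2 fold change of 0.93 with an adjusted p of 0.00888 in edgeR. Os07g0241500 stood at 11.2 and 9.49 CPM against 24 and 17.1 CPM in OE, a log2 fold change of 0.99 with an adjusted p of 0.0355. Os05g0177500 stood at 4.6 and 4.67 CPM against 8.39 and 7.61 CPM, a log2 fold change of 0.79 with an adjusted p of 0.0481. In each of them both OE libraries were above both NT Nakdong libraries, which largely follows from their being picked by this comparison. The adjusted p of Os05g0177500 was at or over 0.05 in 11 of 14 alternative fits (range 0.0195 to 0.308), that of Os07g0241500 in 6 of 14 (0.00166 to 0.316) and that of Os07g0510500 in 2 of 14 (8.82e-05 to 0.133). Leaving out a single library was enough to lose it for each of the 3 genes. Without OE replicate 2, Os07g0510500 and Os07g0241500 instead passed 2-fold as well (log2 fold changes 1.05 and 1.21). Each gene is described only as a family member, with no known acceptor.

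The 9 genes past the unadjusted threshold in OE were mostly weak or uneven. Os07g0490100 stood at 3.58 and 4.23 CPM in NT Nakdong and 12.8 and 6.05 CPM in OE (log2 fold change 1.27, edgeR adjusted p = 0.1), and DESeq2 called it (adjusted p = 0.00621, with a range of 0.00295 to 0.518 over the alternatives). Os10g0178500 stood at 2.78 and 3.20 CPM against 3.80 and 13.2 CPM in OE, so that the difference rested on OE replicate 2. Os02g0206400, described as similar to UGT99C4, stood at 1.33 and 0.877 CPM against 3.38 and 1.81 CPM (log2 fold change 1.25, adjusted p = 0.14). The others were Os04g0556400, Os09g0119600, Os11g0461200 and Os10g0122000, each at 2.07 CPM or less in every OE and NT Nakdong library, and Os04g0197500 and Os07g0241600, which had 0 counts in NT Nakdong.

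Os04g0197500 was seen in OE alone. It had 25 and 26 estimated counts in the OE libraries and 0 in each of the other 6, and was at least 20.7-fold higher in OE than in NT Nakdong when NT Nakdong is set at 3 counts over the group. It was named after its values were seen and could be tested only because of the OE libraries themselves, so no p-value of it is given. Its level in OE was only 0.863 and 0.942 CPM. Os07g0241600 had 36 and 15 counts in OE and 0 in NT Nakdong, but also 0 and 41 counts in KD, and its KD replicates thus lay at both ends of its range.

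In OsGRP3 KD compared with NT Dongjin, 31 UGT genes were called higher and 19 lower out of 100 tested, 1 of the rises (Os01g0736100, at most 25 counts) having passed the filter through the KD libraries alone. Over all genes 23.8% were called higher and 13.8% lower, so that 37.6% of the table was called. The median log2 fold change of the UGT genes was 0.33 beside 0.14 for all genes, and it stayed at 0.33 with the genes at 0 counts in a group set to their lower bound. With no adjustment of p the counts were also 31 and 19, beside 24.6% and 14.2% of all genes (38.9% together). The KD comparison rests on the NT Dongjin libraries. Against NT Nakdong, a reference of another cultivar added after the data were seen, 5 UGT genes were called higher in KD and 2 lower, beside 1.36% and 3.04% of all genes (4.40% together), with a median of 0.25 beside 0.01 for all genes. When only the 3′-most exon of each transcript was counted, 21 were called higher and 26 lower of 99 tested, beside 19.6% and 12.9% of all genes (32.5% together), and the median was -0.15. Of the 50 calls, 48 could be tested on the 3′-most exon, 39 were called there in the same direction (21 up, 18 down), and 0 in the opposite one. Of the 99 genes, 63 have 1 exon, which is the whole transcript. For them the counts are the same apart from rounding, and only the scaling and the fit differ.

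**Figure D2:**
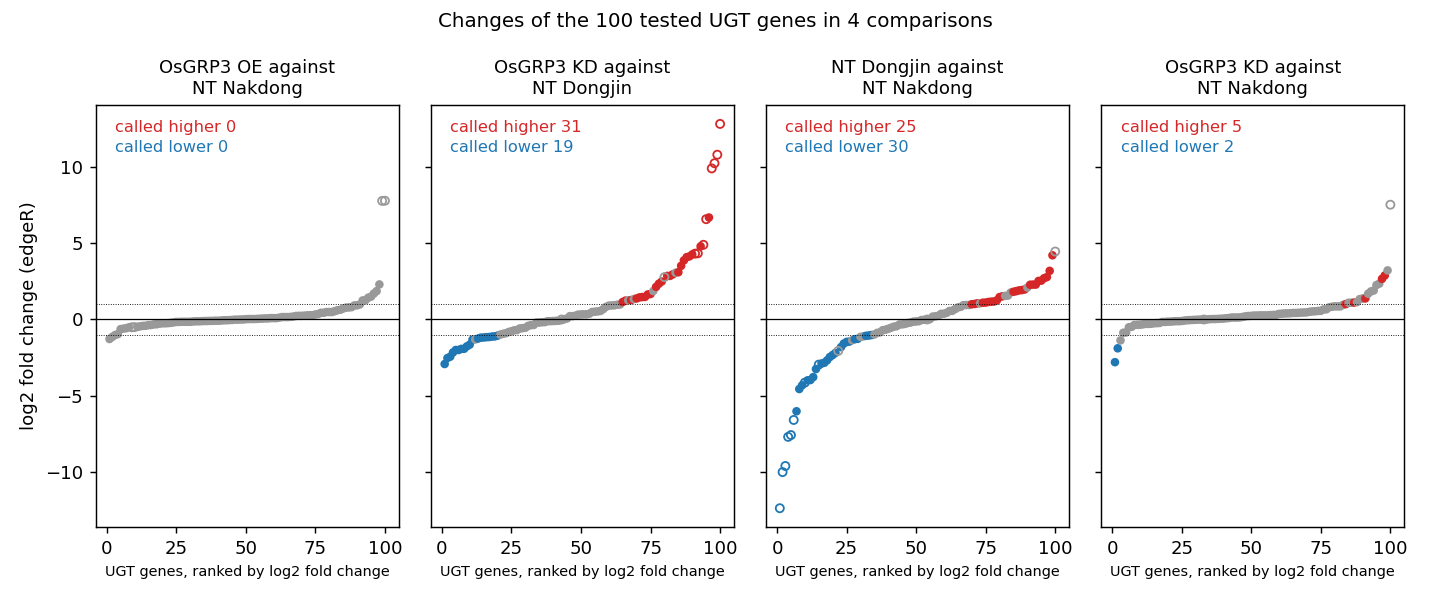
Log2 fold changes from edgeR of the 100 tested UGT genes, ranked within each of 4 comparisons. Red and blue points passed 2-fold and an adjusted p under 0.05, grey points did not, dotted lines mark 2-fold, and open points have 3 counts or fewer in a group, so that their height depends on the fit. Calls number 0 higher and 0 lower in OE against NT Nakdong, 31 and 19 in KD against NT Dongjin, 25 and 30 in NT Dongjin against NT Nakdong, and 5 and 2 in KD against NT Nakdong.

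The largest rises in KD were of genes that were silent or nearly so in NT Dongjin. Os05g0527800 (chromosome 5, 26225665 to 26227661 in IRGSP-1.0), one of whose transcripts is described as similar to anthocyanidin 5,3-O-glucosyltransferase, an enzyme of rose that adds glucose to anthocyanin pigments, had 842 and 872 counts in KD and 0 and 0 in NT Dongjin. It was at least 605-fold higher in KD. In NT Nakdong it had 615 and 899 counts and in OE 1008 and 582, so that NT Dongjin was the only group without it. On the CPM scale KD (27 and 32.4) and NT Nakdong (20.4 and 23.2) differed by 0.44 on the log2 scale with an adjusted p of 0.275. Nearly all of its coverage lay on the single-exon transcript, at 33.8 to 60.3 reads per base in the 6 libraries, against at most 2.67 on the transcript that carries the anthocyanidin description.

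A neighbouring pair on chromosome 11, Os11g0457000 and Os11g0457300, behaved alike. Os11g0457000 had 248 and 181 counts in KD, 0 and 0 in NT Dongjin and 118 to 233 in the Nakdong libraries, which makes it at least 149-fold higher in KD than in NT Dongjin. Os11g0457300 had 113 and 114 counts in KD, 0 and 0 in NT Dongjin and 91 to 155 in the Nakdong libraries, at least 80-fold higher in KD. Both have 1 exon and carry only the family or domain description. Os07g0201800 was also at 0 in NT Dongjin, but with 18 and 5 counts in KD and 5 to 21 in the Nakdong libraries its level was low everywhere. Its bound was 7.77-fold, the call was lost without either NT Dongjin library or without KD replicate 1 (adjusted p 0.0579 to 0.078), and against NT Nakdong its log2 fold change was -0.02.

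Os07g0490100 was also higher in KD against NT Nakdong. It had 788 and 667 counts in KD, 1 and 0 in NT Dongjin, 108 and 164 in NT Nakdong and 372 and 167 in OE. KD was 1530-fold above NT Dongjin, with an exact 95% counting interval from 274 to 60500. The 1 count in NT Dongjin was rounded up from a coverage of 0.03 reads per base, so that the ratio and its interval are approximate. Against NT Nakdong the log2 fold change was 2.67 with an adjusted p of 0.0024 in edgeR, and the KD libraries at 25.2 and 24.8 CPM were above all other libraries. Its 2 annotated transcripts are single exons of 1710 and 1683 bases. The first had a coverage of 46.5 and 39.3 reads per base in KD and at most 0.0567 elsewhere, while the second had 6.45 to 22.3 in the Nakdong libraries and at most 0.0151 in KD.

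Replicates of a group could also be assigned to opposite models. In Os04g0206700, with transcript models of 1662 and 1693 bases, KD replicate 1 had a coverage of 0.264 and 18.7 on the first and second model and KD replicate 2 had 17.6 and 1.36. In Os07g0503300 the NT Dongjin libraries put 14.1 and 0.0293 on the first model and 0.00407 and 18.2 on the second. The gene totals of the same replicates were close, at 10.2 and 11.6 CPM for Os04g0206700 in KD and 9.03 and 8.85 CPM for Os07g0503300 in NT Dongjin. The gene total is what is compared here, and 19 of the 130 genes have more than 1 transcript.

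Os06g0289900 showed the same shape at a high level. It stood at 97.9 and 117 CPM in NT Nakdong, 182 and 147 in OE, 1.96 and 1.39 in NT Dongjin and 164 and 179 in KD, so that it was among the 8 highest UGT genes in 6 libraries and close to the floor in the other pair. The log2 fold change in KD was 6.69 ± 0.20 (SE, edgeR adjusted p = 8.97e-08), and against NT Nakdong it was 0.67 (adjusted p = 0.0232). Os07g0241500 stood at 0.602 and 0.868 CPM in NT Dongjin and 19.2 and 22.6 CPM in KD, a log2 fold change of 4.8 ± 0.25 (adjusted p = 9.16e-07). Against NT Nakdong it was 1.01 (adjusted p = 0.0163), so this gene was called higher in KD with both references. Os07g0502900 went the other way: with 30 and 6 counts in KD, 0 and 1 in NT Dongjin and 93 and 208 in NT Nakdong, it was 37.8-fold above NT Dongjin (exact 95% counting interval 6.37 to 1540) with a call that was lost without KD replicate 1 (adjusted p = 0.0697), and below NT Nakdong by a log2 fold change of -2.80 (adjusted p = 0.0296).

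**Figure D3:**
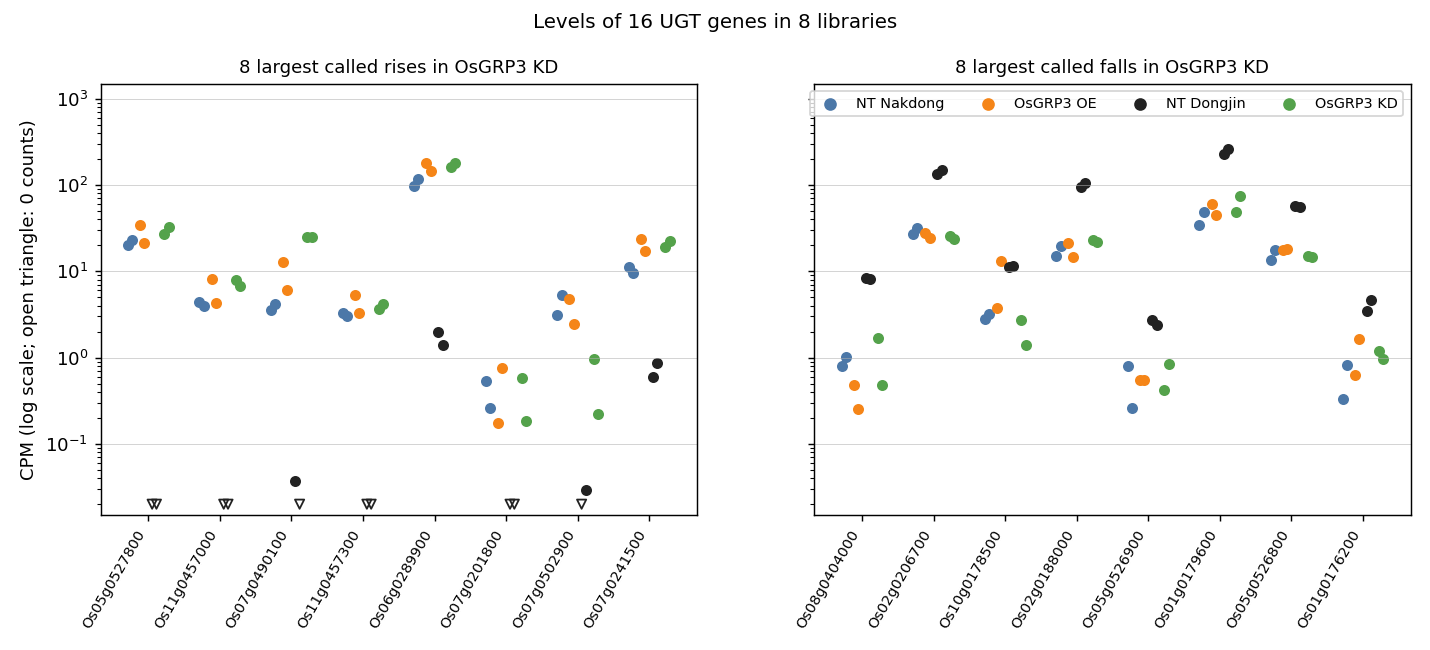
CPM on a log scale in each of the 8 libraries for the 8 UGT genes with the largest called rises in KD against NT Dongjin (left) and the 8 with the largest called falls (right), 1 point per library. On the left the black NT Dongjin points are at 0 counts or below 2 CPM, and on the right they lie above the KD points of the same gene. Genes were picked only where the libraries of KD and NT Dongjin do not overlap, so that separation was fixed by the choice.

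The largest falls in KD were smaller than the rises. Os08g0404000 had 224 and 281 counts in NT Dongjin, 52 and 13 in KD, 24 and 39 in NT Nakdong and 14 and 7 in OE. Its log2 fold change in KD was -2.92 ± 0.48 (SE, edgeR adjusted p = 0.000721), and against NT Nakdong it was 0.27 (adjusted p = 0.805). The KD replicates of this gene differed more than 3-fold in CPM (1.67 and 0.483). Both were below the NT Dongjin libraries (8.43 and 8.13), which the choice of these genes required. Os10g0178500 stood at 11.3 and 11.5 CPM in NT Dongjin and 2.76 and 1.41 in KD, a log2 fold change of -2.44 ± 0.53 (adjusted p = 0.00341), and OE replicate 2 at 13.2 CPM was as high as NT Dongjin.

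Several of the most abundant UGT genes were among the falls. Os02g0206700 stood at 135 and 149 CPM in NT Dongjin and 25.5 and 23.6 CPM in KD, a log2 fold change of -2.53 ± 0.11 (edgeR adjusted p = 4.3e-07). The Nakdong libraries at 24.6 to 31.4 CPM overlapped KD. Os02g0188000 stood at 95.7 and 106 CPM in NT Dongjin and 23.1 and 21.9 CPM in KD (log2 fold change -2.16 ± 0.18, adjusted p = 1.09e-05), and Os01g0179600 at 227 and 264 CPM against 48.3 and 74.7 CPM (log2 fold change -2 ± 0.24, adjusted p = 9.19e-05). In both, KD lay close to the Nakdong libraries, which ranged from 14.6 to 21.1 CPM and from 34.8 to 59.8 CPM.

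The other 3 of the 8 largest falls lie in groups of neighbours. Os05g0526800 fell from 57.7 and 55.5 CPM in NT Dongjin to 15 and 14.7 CPM in KD (log2 fold change -1.93 ± 0.13, edgeR adjusted p = 2.65e-06). Its neighbour Os05g0526900 stood at 2.71 and 2.37 CPM in NT Dongjin and 0.416 and 0.854 CPM in KD (log2 fold change -2 ± 0.57, adjusted p = 0.0137). Os01g0176200 stood at 3.46 and 4.69 CPM and 1.19 and 0.965 CPM (log2 fold change -1.92 ± 0.52, adjusted p = 0.011). The call of Os05g0526900 was lost without NT Dongjin replicate 1 or KD replicate 1 (adjusted p 0.0651 and 0.0753), and that of Os01g0176200 without NT Dongjin replicate 2 or KD replicate 2 (adjusted p 0.0705 and 0.0509). Of the other genes among the 8 highest, Os04g0320700 fell by 1.65 ± 0.16 and Os11g0599200 by 1.12 ± 0.12 on the log2 scale, both called, whereas Os02g0206100 and Os03g0757200 had log2 fold changes of -0.57 and -0.42, under 2-fold.

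The genes whose description names an acceptor were few. Besides Os05g0527800 and Os07g0100300, they were Os11g0444000 and Os03g0757600. Os11g0444000 is described as similar to BX8, a maize enzyme that adds glucose to benzoxazinoids, defence compounds that are toxic when free. It stood at 8.48 and 12.1 CPM in NT Nakdong, 9.95 and 10.6 in OE, 3.20 and 3.67 in NT Dongjin and 9.39 and 9.39 in KD. NT Dongjin was below all other libraries, with a log2 fold change in KD of 1.45 ± 0.20 (edgeR adjusted p = 0.000213) and of -0.14 against NT Nakdong (adjusted p = 0.712). Os03g0757600, with a transcript described as similar to indole-3-acetate beta-glucosyltransferase, the maize enzyme that conjugates auxin, had 0 to 12 counts per library and a log2 fold change in KD of 0.32 ± 1.22, so that no difference was detectable at this depth.

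In NT Dongjin compared with NT Nakdong, 2 groups with no transgene, 25 UGT genes were called higher and 30 lower, beside 14.3% and 24.7% of all genes. The median log2 fold change was -0.12 beside -0.10 for all genes. NT Dongjin is the reference of the KD comparison and NT Nakdong that of the OE comparison, so these values are not independent of those above. The share called was higher here than in either transgenic comparison, 55 of 100 UGT genes and 38.9% of all genes. On the 3′-most exon 34 were called higher and 19 lower, beside 13.4% and 21.7% of all genes (35.2% together), with a median of 0.28.

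The largest differences between the NT groups were again at the silent genes. Os05g0527800 was at least 444-fold lower in NT Dongjin than in NT Nakdong, Os11g0457000 at least 85.6-fold and Os11g0457300 at least 65-fold. Os07g0502900, with 1 count in NT Dongjin and 301 in NT Nakdong, gave a ratio of 267 (exact 95% counting interval 47.5 to 10600). Among the genes higher in NT Dongjin, Os04g0556400, described as similar to UGT93B9, had 34 and 34 counts against 1 and 3 in NT Nakdong, a log2 fold change of 4.21 (edgeR adjusted p = 0.00349), but its KD libraries at 8 and 24 counts were not called against NT Dongjin. Os08g0404000, Os01g0176200 and Os02g0206400 were higher by 3.19, 2.78 and 2.71 on the log2 scale, with adjusted p-values of 0.000437, 0.0019 and 0.000149.

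How far NT Dongjin stood apart can be read from the ranks of the libraries. Both NT Dongjin libraries were below the other 6 in 35 of the 100 tested UGT genes and above them in 33, beside 36.3% and 32.1% of all genes. The KD libraries were below the other 6 in 3 UGT genes and above them in 12, beside 5.52% and 8.90% of all genes. OE was below in 1 and above in 6 (4.79% and 5.72% of all genes), and NT Nakdong was below in 6 and above in 2 (4.75% and 8.81%). The share of UGT genes in which NT Dongjin was the outermost group was thus near that of the whole table.

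The genes called in KD against NT Nakdong were named after their values were seen. Higher were Os07g0490100 and Os07g0241500 (above), Os02g0206400 (log2 fold change 1.38, edgeR adjusted p = 0.046), Os10g0331600 (1.11, adjusted p = 0.0385) and Os05g0527000 (2.89, adjusted p = 0.0458), and lower were Os07g0502900 and Os04g0324100. Os05g0527000 had few counts, 7 and 12 in NT Nakdong, 18 and 32 in NT Dongjin and an uneven 37 and 79 in KD. Against NT Dongjin it was not called (1.34, edgeR adjusted p = 0.107). Os10g0331600 stood at 2.98 and 4.08 CPM in NT Nakdong, 4.25 and 4.35 in OE, 2.45 and 2.43 in NT Dongjin and 5.86 and 9.43 in KD. Here KD was above every other library, and the gene was called higher against NT Dongjin too (1.64, adjusted p = 0.000754). Os04g0324100 stood at 4.77 and 5.32 CPM in NT Nakdong, 4.07 and 4.6 in OE, 2.56 and 2.26 in NT Dongjin and 1.35 and 1.37 in KD. It was the lowest in KD of all groups, by -1.89 against NT Nakdong (adjusted p = 0.0024) and by -0.82 against NT Dongjin (adjusted p = 0.0137, short of 2-fold).

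The change in OE was compared with the change in KD by testing the difference itself. It was at least 2-fold with an adjusted p under 0.05 in edgeR for 40 of the 100 UGT genes, beside 34.0% of all genes. In 12 the OE change was the higher and in 28 the lower. Over all genes these shares were 12.0% and 22.0%. For Os06g0289900 the OE change was 0.61 and the KD change 6.69, a difference of -6.08, and for Os02g0206700 they were -0.15 and -2.53, a difference of 2.38. Os05g0177500 had opposite signs, higher in OE by 0.79 (adjusted p = 0.0481, lost in most alternative fits as given above) and lower in KD at -1.11 (adjusted p = 0.000286; -0.98 without NT Dongjin replicate 2 and -0.96 without KD replicate 1, short of 2-fold), and against NT Nakdong it was higher in KD by 0.86 (adjusted p = 0.0159).

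Neighbouring UGT genes did not always move together in KD against NT Dongjin. Of the 29 groups of neighbours, 9 held at least 2 called genes, and in 5 of these all calls were rises, in 2 all were falls, and in 2 both occurred. Neighbours of other families were not counted for comparison, and 37.6% of all genes were called in KD. On chromosome 2 (5955018 to 6018933) the 5 genes in order were Os02g0206100 (-0.57, not called), Os02g0206400 (-1.32), Os02g0206700 (-2.53), Os02g0207100 (2.86) and Os02g0207400 (3.10), in log2 fold change. The gene order thus had falls on one side and rises on the other, although Os02g0206400, Os02g0207100 and Os02g0207400 are all described as similar to UGT99C4. Os02g0207100 had at most 24 counts in a library.

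On chromosome 7 (19008024 to 19062546) the order was Os07g0502900 (4.90), Os07g0503300 (-0.36, not called), Os07g0503500 (4.27) and Os07g0503900 (-1.25). Os07g0503500 was the abundant one, at 78 and 89.4 CPM in NT Nakdong, 82 and 79.2 in OE, 3.27 and 3.79 in NT Dongjin and 75.9 and 61 in KD. Only NT Dongjin was low. On chromosome 5 the falls Os05g0526800 and Os05g0526900 begin at 26192929, and the silent gene Os05g0527800 begins at 26225665. The pairs Os07g0510400 and Os07g0510500 (4.14 and 2.49), Os04g0525100 and Os04g0525200 (4.09 and 2.96) and Os11g0457000 and Os11g0457300 rose together. Neighbours can share sequence, and how the authors' counting placed reads that fit more than 1 copy is not given in the sources used here.

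**Figure D4:**
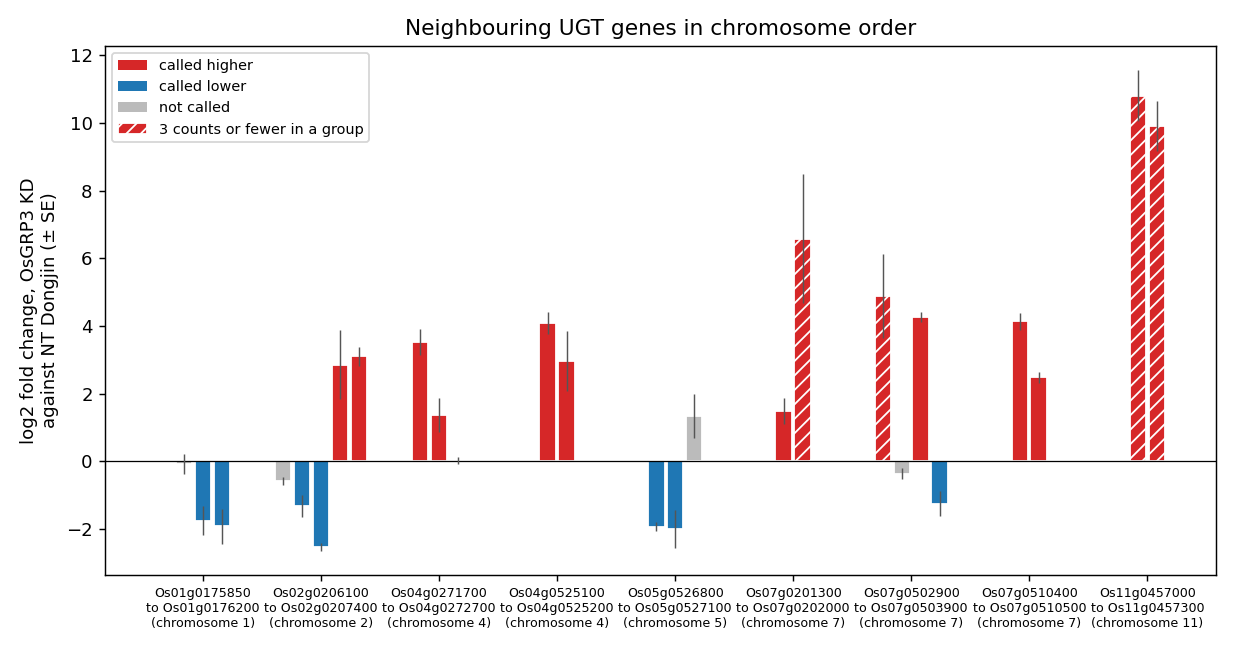
Log2 fold change (bar) and standard error (line) in KD against NT Dongjin for the tested UGT genes of the 9 groups of neighbours with at least 2 called genes, in chromosome order within a group. Hatched bars have 3 counts or fewer in NT Dongjin, so that their height depends on the fit. Rises and falls stand side by side in the groups that begin at Os02g0206100 and Os07g0502900.

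Among the 62 tested UGT genes with 1 exon, 24 were called higher and 12 lower in KD, with a median log2 fold change of 0.62. Among the 38 with 2 or more exons 7 were called higher and 7 lower, with a median of 0.16. Shares over all genes of each exon class were not computed, so the contrast is not shown to be particular to UGT genes. On the 3′-most exon the single-exon genes gave 19 rises and 19 falls of 63 with a median of 0.00, and the others 2 and 7 of 36 with a median of -0.25. For a gene of 1 exon this is the whole transcript, so its counts are the same apart from rounding. Its values there differ through the scaling and the fit over all genes. In Os07g0100300, which has 10 exons, the full-length model had a coverage of 51.9 to 92.5 reads per base in 6 libraries and 146 and 207 in NT Dongjin, while a shorter model of 5 exons had 255 to 406 and 240 and 312. The part that coverage along the transcript played in the KD calls was not tested beyond these values.

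The other genes of sugar conjugation were counted from keyword lists. Of 18 tested glycosyltransferases with other descriptions, 0 were called in OE, and 5 were called higher and 2 lower in KD against NT Dongjin, with a median log2 fold change of 0.10. One of the falls was a sucrose-phosphate synthase caught by its wording. Of 21 tested genes that supply UDP-sugars (sucrose synthases, UDP-glucose dehydrogenases, epimerases), 0 were called in OE, and 7 were called higher and 0 lower in KD, with a median of 0.61. Against NT Nakdong 0 of these 21 were called higher in KD and 3 lower, beside 1.36% and 3.04% of all genes.

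Of 42 tested glucoside hydrolases, a list that also takes in glucan endo-1,3-beta-glucosidases, 1 was called higher in OE (Os05g0365700, log2 fold change 1.14, edgeR adjusted p = 0.0396). In KD against NT Dongjin 17 were called higher and 5 lower, with a median of 0.95, and against NT Nakdong 2 and 1. Of 30 MATE transporters, which carry small molecules across the vacuolar and plasma membranes, 6 were called higher and 11 lower in KD, with a median of -0.66, and 0 in either direction against NT Nakdong and in OE. The all-gene shares for KD against NT Dongjin are the 23.8% and 13.8% given above, with a median of 0.14. Those for KD against NT Nakdong are 1.36% and 3.04%, and those for OE 0.619% and 0.853%.

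Summed levels of marker genes moved with the NT Dongjin libraries. Genes of dividing or growing tissue (89 genes) summed to 1720 and 1740 CPM in NT Dongjin and 2560 to 2740 CPM elsewhere, with 47 and 48 of them at 0 counts against 34 to 38. Genes that respond to handling (27 genes) summed to 515 and 526 CPM against 917 to 1110 CPM. The 6 root genes summed to 72.5 and 79.9 CPM in NT Dongjin and 88.6 to 144 CPM elsewhere. The part of these differences in the UGT results was not tested.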

How the data were processed

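Sequencing libraries came from leaf RNA of 8 rice samples, 2 in each of 4 groups. Estimated counts per gene were made by the authors from StringTie 1.3.4d coverage (header of the deposited transcript files; HISAT2, Bowtie2 and IRGSP-1.0 are named in the submitters' processing notes, and the study's methods name TopHat), as coverage times transcript length divided by 101, rounded up and summed. They are estimates, already whole numbers. FPKM values are the authors' sums over a gene's transcripts, and the deposited coverage is the mean reads per base. Genes were fitted with edgeR 4.0.16 (TMM, filterByExpr, quasi-likelihood test, 1 mean per group, p-values adjusted over all genes). Calls needed 2-fold and an adjusted p under 0.05. DESeq2 1.42.0 and limma 3.58.1 (log2(FPKM + 1) and log2(FPKM + 0.1), R 4.3.3) were alternatives, and the fits were tested on simulated data. Against a group at 0, a fold is set against 3 counts over the group. Counting intervals and bounds cover counting error only. They treat the rounded-up estimates as counts, so that 1 count can stand for less than 1 read. The replicates' origin in separate plants rests on the study's wording. The named genes are the 8 called rises and falls of largest size in KD, 4 each between NT groups, the 8 of highest mean FPKM, those whose description names an acceptor and those at 0 in one group and at 5 CPM or more in another, with others named after their values were seen. The called rises and falls were picked only among genes whose libraries do not overlap between the 2 groups compared. Members and lists were chosen with earlier results of these data known. No protein or promoter sequences were used here.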

Additional observations from a re-analysis of the deposited data

Results flagged for a closer look

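The changes in OE and KD differed for 12 UGT genes with the higher change in OE and for 28 with the lower, by edgeR's test of the difference (2-fold, adjusted p under 0.05). Among the genes chosen by the naming rule or for their OE values, the OE change minus the KD change on the log2 scale was positive for Os10g0178500 (3.94), Os01g0176200 (2.84), Os10g0122000 (2.59), Os02g0206400 (2.57), Os02g0206700 (2.38), Os01g0179600 (2.33), Os02g0188000 (2.19), Os05g0526800 (2.13), Os05g0177500 (1.89) and Os04g0320700 (1.72). It was negative for Os06g0289900 (-6.08), Os07g0241500 (-3.81), Os07g0510500 (-1.56) and Os11g0444000 (-1.45), and for the genes with 0 or 1 count in NT Dongjin, whose fitted size depends on the prior count: Os05g0527800 (-12.47), Os11g0457000 (-10.26), Os11g0457300 (-9.47), Os07g0490100 (-8.98), Os07g0201800 (-6.32) and Os07g0502900 (-5.14). The NT Dongjin libraries enter each of these differences, and groups of 2 libraries are too small for a test of single outlying samples.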

How the results depend on the processing

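In OE, where edgeR called 0 UGT genes, DESeq2 called 3 higher, the fit with no filter on low counts 1 and the fit on 4 libraries 1. Over all genes these fits called 188 of 30367, 207 of 30367 and 177 of 23282 higher. The 1 gene of the 4-library fit was Os04g0197500, also among the 3 of DESeq2. It had counts in the OE libraries alone and passed the low-count filter through them, so no weight is put on its call. The OE log2 fold change of Os02g0206400 was 0.73 without OE replicate 1 and 1.63 without OE replicate 2. In KD the rises numbered 19 with at least 10 counts in every library, 19 by limma on log2(FPKM + 1) with or without a filter, 5 against NT Nakdong, and 27 to 33 with 1 library left out, and the falls 11 by limma either way, 2 against NT Nakdong and 14 to 19. Between the NT groups the rises numbered 14 by limma either way and 18 to 26 with 1 library left out, and the falls 18 with at least 10 counts, 18 by limma either way, 19 on the 3′-most exon and 20 to 27 with 1 library left out. The difference between OE and KD gave 31 to 46 genes with 1 library left out. These settings also changed the set tested. The limit of at least 10 counts left 72 UGT genes, without any gene under 10 counts in a library, and limma tested 84, or 122 unfiltered. Over all genes the KD rises and falls were then 3689 and 2735 of 18898 tested, and by filtered limma on log2(FPKM + 1) 3921 and 2359 of 21543. Between the NT groups the all-gene rises and falls were 2711 and 3589 of 18898, and 2408 and 4139 of 21543. The replicate numbers did not pair the samples (correlations of -0.026, -0.001 and -0.022). With the replicate block 0 genes were called in OE, 30 and 19 in KD, 25 and 29 between NT groups and 36 for the difference. Against NT Nakdong the KD change of 12 named genes took the opposite sign: Os01g0176200 0.86, Os01g0179600 0.56, Os02g0188000 0.37, Os02g0206400 1.38, Os04g0320700 0.26, Os05g0177500 0.86, Os05g0526900 0.29, Os07g0201800 -0.02, Os07g0502900 -2.80, Os08g0404000 0.27, Os10g0122000 1.14 and Os11g0444000 -0.14. The cause was not tested. Another 11 named genes kept the direction of their KD change against NT Nakdong but lost the call, and 2 kept both. Of 856 refitted values of named genes, 775 kept their direction and their side of the threshold, 59 kept the direction but lost the call, and 10 gained one. With 2 libraries a group, leaving one out assumes that the lone library varies like the other groups, and genes with few counts give imprecise values.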
